A study of Mus musculus with 9 samples.

Results

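The laminin chains described here are the 9 genes Lama1, Lama2, Lama3, Lama4, Lama5, Lamb1, Lamb2, Lamb3 and Lamc1, chosen by name and matched from Ensembl ID to mouse symbol among the 54232 genes in the count files. RNA was sequenced from microdissected cochlear ducts at E14.5, taken from 9 mouse embryos of the FVB/NJ background, 3 WT, 3 heterozygous for the Prdm16 cGT gene trap allele (Het) and 3 homozygous for it (Null), obtained as littermates from crosses of heterozygotes. Both inner ears of an embryo gave its ducts, and each embryo gave a single library. The gene trap is present in every cell of the mutant embryos rather than in the duct alone, so the compared tissues differ in genotype throughout. Prdm16 encodes a zinc finger transcriptional regulator, and the comparison asked how its loss alters gene expression in the developing duct. All 9 laminin genes were detected in every library and passed the low count filter in each of the 3 comparisons between genotypes.

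Laminins are cross-shaped heterotrimers of an alpha, a beta and a gamma chain that form the first sheet of a basement membrane. The alpha chain carries the globular end that binds integrins, dystroglycan and the Lutheran glycoprotein Bcam on cells, while the gamma chain binds nidogens, which join the laminin sheet to collagen IV. Lama5 joins Lamb1 or Lamb2 and Lamc1 under most epithelia, and Lama1 does so mainly in the early embryo. Lama4 is typical of blood vessels and mesenchyme, Lama2 of muscle and Schwann cells, and Lama3 and Lamb3 of hemidesmosomes. In the inner ear, the basement membrane under the duct separates its epithelium from the surrounding periotic mesenchyme.

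To show the DNA next to the start sites of the abundant chains Lama5, Lamb1 and Lamb2 and the scarce Lamb3, exon-free stretches before RefSeq start sites are given. That of Lamb3 lies within the span of the gene in GENCODE, which holds longer transcripts that begin upstream. RefSeq windows of GRCm38.p6, of 300 bases around a start site, were matched for 5 of the 9 members, of which Lama2 is not shown. Windows were searched on both strands for the GC box GGGCGG and the TATA box TATAAA, and capitals mark a GC box as read on the printed strand, GGGCGG or CCGCCC. The Lama5 sequence is from chr2:180225860-180226109 on the minus strand, Lamb1 from chr12:31265043-31265233, Lamb2 from chr9:108479612-108479735 and Lamb3 from chr1:193301744-193301992, the last 3 on the plus strand. Each is written 5′ to 3′ toward the gene.
Lama5: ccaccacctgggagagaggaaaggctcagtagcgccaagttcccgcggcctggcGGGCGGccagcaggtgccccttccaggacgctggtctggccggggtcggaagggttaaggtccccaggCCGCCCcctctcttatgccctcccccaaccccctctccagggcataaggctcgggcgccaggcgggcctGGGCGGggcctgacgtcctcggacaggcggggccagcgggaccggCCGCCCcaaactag
Lamb1: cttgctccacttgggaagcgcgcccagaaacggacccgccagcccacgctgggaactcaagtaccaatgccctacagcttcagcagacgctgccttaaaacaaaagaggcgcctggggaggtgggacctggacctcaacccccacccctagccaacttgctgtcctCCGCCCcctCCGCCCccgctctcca
Lamb2: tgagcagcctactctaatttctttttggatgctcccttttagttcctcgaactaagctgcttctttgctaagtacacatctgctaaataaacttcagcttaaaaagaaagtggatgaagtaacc
Lamb3: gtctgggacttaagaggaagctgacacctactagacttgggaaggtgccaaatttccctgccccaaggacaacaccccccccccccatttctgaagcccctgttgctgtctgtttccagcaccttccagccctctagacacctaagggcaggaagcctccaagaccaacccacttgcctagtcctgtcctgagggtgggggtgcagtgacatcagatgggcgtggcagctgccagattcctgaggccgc

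The Lama5 stretch held 4 GC boxes and the Lamb1 stretch held 2, while the Lamb2 and Lamb3 stretches held 0. The window of Lama2, a scarce chain, held 1. Among all 32851 windows of this length, 35.7% held a GC box and 13.6% a TATA box. None of the 4 printed stretches held a TATA box. The GC content of the whole window was 72.7% for Lama5 and 63.7% for Lamb1, against a median of 52.7% over all windows. It was 59.3% for Lamb3 and 44.0% for Lamb2. The Lama5 window held 24 CpG dinucleotides, the Lamb1 window 18, the Lamb2 window 4 and the printed Lamb3 window 2, and the median window held 7. A second Lamb3 window, which overlaps the first and is not printed, held 5 CpG and 0 GC boxes. These matches describe letters in the windows, and they were not tested against expression.

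The libraries held 24095322 to 30819118 counts each, so that a count of 3, taken as the limit of a library, was 0.0973 to 0.125 CPM (counts scaled to a common library size, here without the TMM factors that the CPM values below include). These limits cover counting error only. Prdm16 was 183.8 to 224.9 CPM in WT, 122.6 to 151.1 CPM in Het and 19.1 to 27.4 CPM in Null embryos, with no overlap between genotypes. Markers of duct epithelium summed to 12933 to 18770 CPM over 12 genes, and all 12 were above 3 counts in every library. Of these 12, 0 rose and 2 fell between Null and WT, where 1.78% of all genes passed. Tecta, a tectorial membrane gene, was 2599 to 3229 CPM in WT, 2497 to 3136 CPM in Het and 1392 to 1641 CPM in Null embryos (edgeR adjusted p = 0.0128 for Null against WT), and Fgf10 was 131.2 to 150.6, 125.4 to 152.3 and 87.1 to 101.9 CPM (edgeR adjusted p = 0.0254). Sox2, Jag1, Otx2, Oc90 and Lmx1a were higher in every Null than in every WT embryo without passing (edgeR adjusted p between 0.116 and 0.367), a separation seen in 10.1% of all genes. Oc90, with a mean of 7812 CPM in WT and 11332 CPM in Null embryos, made up most of the sum. The other 5 overlapped between Null and WT, with log2 fold changes of 0.07 for Epcam and 0.0050 for Cdh1. The part of Tecta and Fgf10 expressing cells in the values of Lama1, Bcam, Smoc2, Col4a6 and Ntng1 was not tested. Libraries also differed in RNA of neighbouring tissue. The 12 mesenchyme markers, which include Col3a1 and Tbx18, summed to 843, 1380 and 279.5 CPM in WT embryos 1, 2 and 3, to 243.0, 263 and 272 CPM in the Het embryos and to 192, 211 and 1743 CPM in the Null embryos. Dcn, which duct epithelium can also express, was 118.1 to 183.4 CPM in all 9 libraries and made up a large part of the lower sums, whereas Col3a1 ranged from 6.0 to 498.7 CPM. The 10 endothelial markers summed to 116, 100.01 and 7.19 CPM in WT, to 9.91, 8.0 and 11.7 CPM in Het and to 11.6, 7.61 and 77.1 CPM in Null embryos. WT 1, WT 2 and Null 3 thus held the highest sums of both lists, and log2 fold changes from a fit without these libraries are given beside the larger differences. In that fit WT has a single library, WT 3, which is assumed to vary like the other genotypes, so no p-values are given from it. No mesenchyme marker was at 3 counts or under in any library, while 3 of the 10 endothelial markers were in WT 3, Null 1 and Null 2, and 2 were in Het 2. In bulk tissue, fewer cells of a type and less RNA per cell cannot be told apart.

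Among alpha chains, Lama5 was by far the most abundant when CPM was divided by the length of the gene's exons. Its level per length was 68.4 ± 5.43 CPM per kb in WT, 78.2 ± 4.56 in Het and 68.5 ± 8.32 in Null embryos (mean ± SD, n = 3). Among all 9 chains, Lamb1 ranked first in each genotype, at 86.7 ± 2.24, 83.5 ± 3.48 and 78.4 ± 2.83 CPM per kb. The ranges of Lamb1 and Lama5 were apart in WT and overlapped in Het and Null embryos. Lamc1 came next at 43.8 ± 1.04, 42.5 ± 1.20 and 39.7 ± 6.11 CPM per kb, and Lamb2 followed at 23.8 ± 1.17, 24.3 ± 1.38 and 25.6 ± 6.31 CPM per kb. Below these, Lama4 and Lama1 were between 0.894 and 3.10 CPM per kb by genotype mean, and their ranges overlapped in WT and Null embryos but not in Het embryos. Lama2 was at 0.646, 0.454 and 0.692 CPM per kb, Lama3 at 0.193, 0.280 and 0.325, and Lamb3 last at 0.123, 0.120 and 0.127 CPM per kb in WT, Het and Null embryos. Lama3 overlapped with Lamb3 in WT and with Lama2 in Het and Null embryos. The order within each genotype was the same when the longest annotated transcript was used in place of all exons, but the gaps were not. Lamb1 was then 148.6, 143.2 and 134.4 CPM per kb in WT, Het and Null embryos and was apart from Lama5 in each genotype. Lama4 was then apart from Lama1 in WT and overlapped with it in Het and Null embryos, and Lama2 was apart from Lama3 in each genotype.

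**Figure D1:**
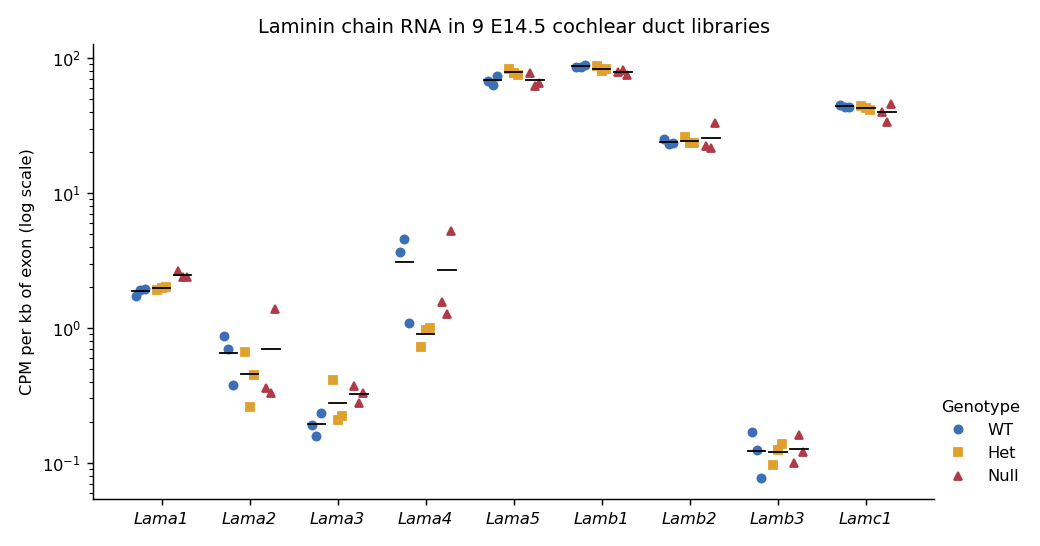
Level of each laminin chain in CPM per kb of exon (log scale) in 9 libraries. Each symbol is an embryo and each line a mean of 3. Lamb1, Lama5, Lamc1 and Lamb2 lie above the other 5 chains, and Lama2 and Lama4 show the widest spread within WT and Null embryos.

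Across the genotypes, no laminin chain passed the test. For each pair of genotypes, the counts of its 6 libraries were fitted with edgeR's quasi-likelihood test, with Benjamini-Hochberg adjustment over all genes and an adjusted p under 0.05 as the threshold. Between Null and WT, 0 of 9 chains passed, where 1.78% of 17168 genes did. Between Het and WT, 0 of 9 passed against 0.261% of 17269 genes, and between Null and Het 0 of 9 passed against 0.645% of 17067 genes. DESeq2 and limma-voom also called 0 of 9 in each comparison. At an unadjusted p under 0.05, 2 of 9 chains were reached in each comparison. These were Lama1 and Lama3 between Null and WT, where the background was 12.2% of genes. Between Het and WT they were Lama4 and Lama5 (background 13.1%), and between Null and Het they were Lama1 and Lama4 (background 11.4%). The median log2 fold change of the 9 chains was 0.05 between Null and WT, -0.03 between Het and WT and 0.08 between Null and Het, beside medians of 0.0097, 2.94e-05 and 0.012 over all genes tested. Each pair of these comparisons shares a genotype and its libraries. With 3 embryos per genotype, precision differed widely between chains, from a standard error of 0.084 for Lamb1 to 0.636 for Lama4 on the log2 scale between Null and WT.

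**Figure D2:**
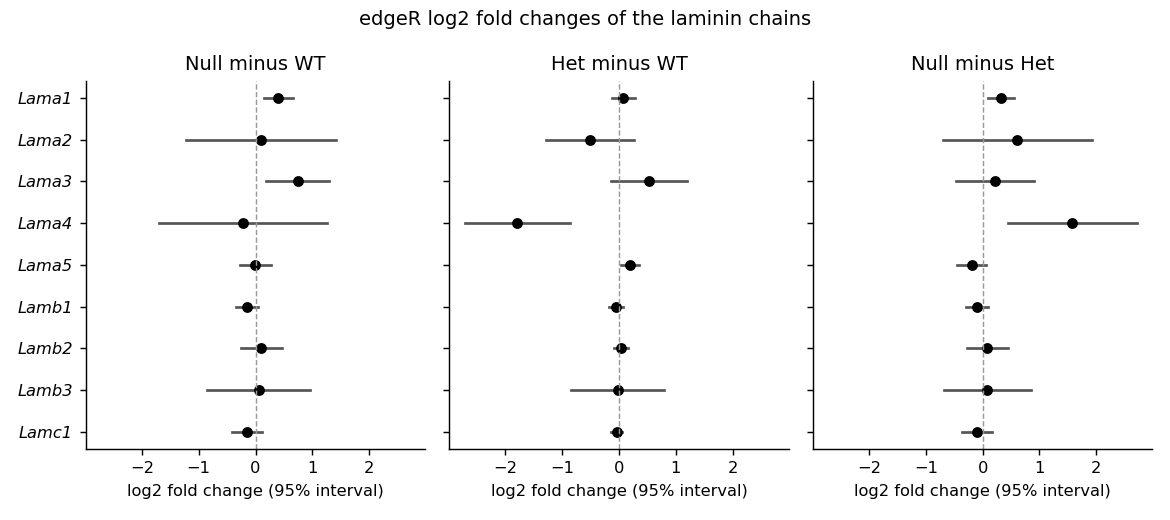
Log2 fold change (horizontal axis) of the 9 laminin chains with its 95% interval from edgeR, for Null minus WT, Het minus WT and Null minus Het. The intervals of Lama2 and Lama4 are the widest between Null and WT, and those of Lama5, Lamb1 and Lamc1 are narrow and close to 0.

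Lama1, on chromosome 17 from 67697259 to 67822647 (mm10, plus strand), encodes the alpha chain of early embryonic basement membranes. WT embryos 1, 2 and 3 held 16.7, 18.5 and 18.9 CPM of Lama1, followed by 18.5, 19.1 and 19.6 CPM in Het embryos and 25.5, 23.0 and 23.1 CPM in Null embryos. Every Null embryo lay above every WT and Het embryo, while WT and Het overlapped. Null against WT gave a log2 fold change of 0.40 (standard error 0.110, 95% interval 0.14 to 0.65, edgeR adjusted p = 0.165). Between Null and Het it was 0.33 (0.09 to 0.56, edgeR adjusted p = 0.292), and between Het and WT 0.08 (edgeR adjusted p = 0.768). Non-overlap upward between Null and WT was seen in 10.1% of all genes tested, and between Null and Het in 9.06%. The comparison of Null and WT had an adjusted p of 0.0457 when all 9 libraries entered one edgeR fit and 0.0549 in DESeq2. Without the 3 libraries high in mesenchyme markers the log2 fold change was 0.36. Null 3, which has the highest mesenchyme sum, lay between the other 2 Null embryos in Lama1.

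Lama3 encodes the alpha chain of hemidesmosome laminin and was low in all libraries. It was 2.04, 1.69 and 2.51 CPM in WT, 4.41, 2.23 and 2.37 CPM in Het and 4.0, 2.97 and 3.52 CPM in Null embryos. All Null values were above all WT values, and Het 1 held the highest value of all. Null against WT gave 0.74 on the log2 scale (standard error 0.241, 95% interval 0.18 to 1.30, edgeR adjusted p = 0.246), and 0.47 without the 3 libraries high in mesenchyme markers. Lamb3, its beta chain partner on chromosome 1 from 193207699 to 193343878 (plus strand), was between 0.51 and 1.11 CPM, which is 15 to 33 counts per library. Its genotypes overlapped fully, and Null against WT gave 0.05 on the log2 scale (edgeR adjusted p = 0.969). At these low counts it was 0.78 without the 3 libraries high in mesenchyme markers, which left a single WT library.

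Lama5, on chromosome 2 from 180176373 to 180225859 (minus strand), encodes the main alpha chain of epithelial basement membranes. It was 775.9, 718.0 and 841.6 CPM in WT, 948.5, 874.8 and 848.2 CPM in Het and 887.3, 707.7 and 744.9 CPM in Null embryos. Every Het value was above every WT value, and Null embryos overlapped with both. Het against WT gave a log2 fold change of 0.19 (standard error 0.0708, 95% interval 0.03 to 0.35, edgeR adjusted p = 0.273), in a comparison where 8.98% of genes had all Het values above all WT values. It was 0.08 without the 3 libraries high in mesenchyme markers. Between Null and WT it was -0.00 with a 95% interval of -0.27 to 0.27 (edgeR adjusted p = 0.997).

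Lamb1 and Lamc1 encode the beta and gamma chains of most laminin trimers. Lamb1, on chromosome 12 from 31265234 to 31329644 (plus strand), was 845.9, 848.1 and 885.4 CPM in WT, 863.1, 794.0 and 827.8 CPM in Het and 783.2, 802.3 and 747.0 CPM in Null embryos. Every Null embryo was below every WT embryo, a pattern shown by 8.95% of genes. Its log2 fold change of -0.15 did not pass the test (standard error 0.084, 95% interval -0.34 to 0.04, edgeR adjusted p = 0.538). Lamc1, on chromosome 1 from 153218922 to 153332786 (minus strand), was 372.3, 355.7 and 359.8 CPM in WT, 361.8, 351.2 and 342.0 CPM in Het and 330.8, 276.6 and 377.6 CPM in Null embryos. Null 3 was the highest of the 9 libraries and Null 2 the lowest. Its fitted difference of Null from WT was -0.15 on the log2 scale (standard error 0.113, edgeR adjusted p = 0.664). It was -0.03 without Null 2 and -0.26 without Null 3. Lamc3, another gamma chain, was 18.1 to 22.8 CPM in WT, 25.2 to 28.1 CPM in Het and 19.0 to 25.5 CPM in Null embryos. Het against WT gave 0.38 on the log2 scale for Lamc3 (edgeR adjusted p = 0.132, DESeq2 adjusted p = 0.0279). Without WT 3 it was 0.46 (edgeR adjusted p = 0.0303), in a fit that called 727 genes where the main fit called 45. In the other fits with an embryo left out, the edgeR adjusted p of Lamc3 lay between 0.212 and 0.370. Without the 3 libraries high in mesenchyme markers its log2 fold change was 0.23.

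Lamb2, on chromosome 9 from 108479736 to 108490530 (plus strand), encodes a beta chain known from the neuromuscular junction and the kidney filter. It was 152.8, 139.2 and 142.1 CPM in WT, 157.4, 142.9 and 143.0 CPM in Het and 135.7, 132.0 and 200.3 CPM in Null embryos. A single library, Null 3, stood above the others, while Null 1 and Null 2 were the lowest of the 9. In Null against WT the log2 fold change was 0.10 (edgeR adjusted p = 0.832), and it turned to -0.08 without the 3 libraries high in mesenchyme markers.

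Lama4, on chromosome 10 from 38965515 to 39110188 (plus strand), encodes an alpha chain of vessels and mesenchyme. It was 43.9, 55.3 and 13.1 CPM in WT, 8.71, 11.7 and 11.9 CPM in Het and 18.7, 15.4 and 62.7 CPM in Null embryos. The highest 3 values were those of Null 3, WT 2 and WT 1, the libraries highest in mesenchyme and endothelial markers, in the order of their mesenchyme sums and the reverse of the order of their endothelial sums. The other 6 libraries lay between 8.71 and 18.7 CPM. Null against WT gave a log2 fold change of -0.22 (standard error 0.636, 95% interval -1.69 to 1.25, edgeR adjusted p = 0.917), which was 0.38 without the 3 libraries. Het against WT gave a log2 fold change of -1.79 (standard error 0.414, 95% interval -2.72 to -0.86, edgeR adjusted p = 0.0933), with all Het values below all WT values, as in 8.99% of genes. Without WT 3, the adjusted p was 1.68e-05 and the log2 fold change -2.20 in edgeR. In the other fits with an embryo left out, the edgeR adjusted p lay between 0.166 and 0.320. Without the 3 libraries high in mesenchyme markers, which left a single WT library, the log2 fold change was -0.28. In the same comparison, 11 of the 12 mesenchyme markers and 9 of the 9 tested endothelial markers were lower in Het at an unadjusted edgeR p under 0.05 (13.1% of all genes in either direction), and 0 passed the adjusted threshold (0.261% of all genes). Of these markers 6 and 3 passed in DESeq2, and 0 and 0 in limma-voom. Between Null and Het, the log2 fold change of Lama4 was 1.58 (0.44 to 2.72, edgeR adjusted p = 0.292), and 0.66 without Null 3. The lower 2 Null libraries were still above all Het libraries. No chain had all Null values below all Het values, which 9.1% of genes did. The part of mesenchyme and vessel RNA in these differences was not tested.

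Lama2, also on chromosome 10, from 26980036 to 27619758 (minus strand), encodes the alpha chain of muscle and Schwann cell laminin. It was 14.2, 11.3 and 6.17 CPM in WT, 10.8, 4.21 and 7.31 CPM in Het and 5.86, 5.39 and 22.7 CPM in Null embryos. As for Lama4, the 3 highest values were in Null 3, WT 1 and WT 2, although Het 1 was close behind at a low mesenchyme sum. The genotypes overlapped in all comparisons, and the log2 fold changes were 0.09 between Null and WT, -0.51 between Het and WT and 0.61 between Null and Het (edgeR adjusted p = 0.963, 0.588 and 0.686). Without the 3 libraries high in mesenchyme markers they all changed sign, to -0.13, 0.26 and -0.39. Muscle markers summed to no more than 8.4 CPM over 6 genes in any library, whereas Schwann and glial markers summed to between 1413 and 1699 CPM over 7 genes.

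**Figure D3:**
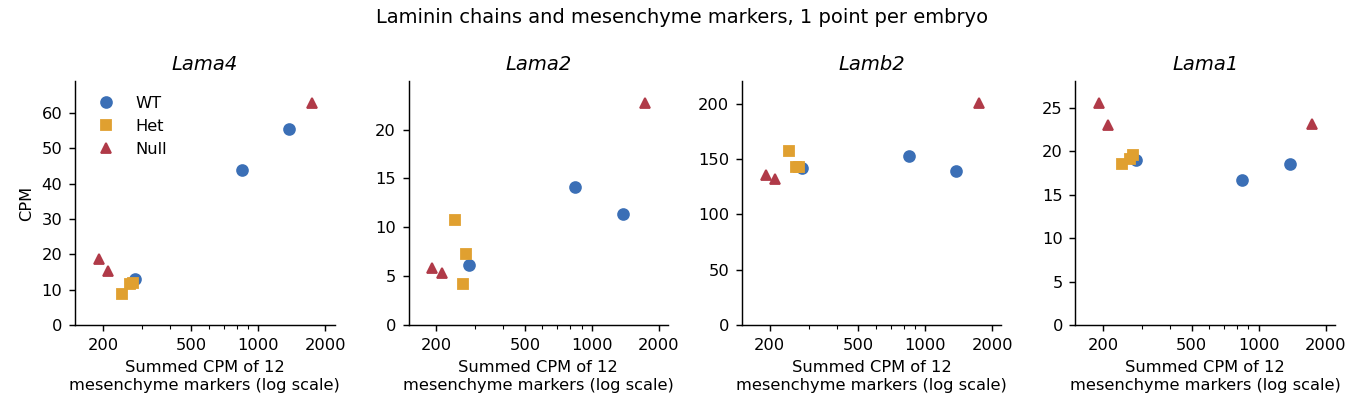
CPM of Lama4, Lama2, Lamb2 and Lama1 (vertical axes, from 0) against the summed CPM of 12 mesenchyme markers (log scale), with a point for each of the 9 embryos. WT 1, WT 2 and Null 3 lie to the right. Lama4 is high in all 3 of them, Lamb2 is high only in Null 3, and Lama1 is highest in the 3 Null embryos at both ends of the axis.

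The make-up of the chains was compared as the share of each alpha or beta chain in the CPM per kb of its class. Lama5 made up 92.1 ± 2.92% of alpha chain RNA in WT, 95.6 ± 0.266% in Het and 91.7 ± 3.63% in Null embryos (SD, n = 3). The share of Lama1 was 2.52 ± 0.206% in WT, 2.41 ± 0.199% in Het and 3.32 ± 0.228% in Null embryos. Its difference of 0.80 percentage points between Null and WT had a two-sided exact permutation p of 0.1, the smallest that 3 embryos against 3 can give. Lama3 had the same p between Null and WT. So did Lama4 and Lama5 between Het and WT, and Lama1, Lama4 and Lama5 between Null and Het. The share of Lama4 was 4.26 ± 2.61% in WT, 1.1 ± 0.238% in Het and 3.58 ± 2.92% in Null embryos, with the high values again in WT 1, WT 2 and Null 3. Among beta chains, Lamb1 made up 78.4 ± 1.1% in WT, 77.4 ± 0.480% in Het and 75.4 ± 5.10% in Null embryos, and Lamb2 made up 21.5%, 22.5% and 24.5%. Null 3, at 69.5% Lamb1 and 30.4% Lamb2, gave the wide spread of the Null group. Lamb3 was 0.112%, 0.112% and 0.122% of beta chain RNA.

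**Figure D4:**
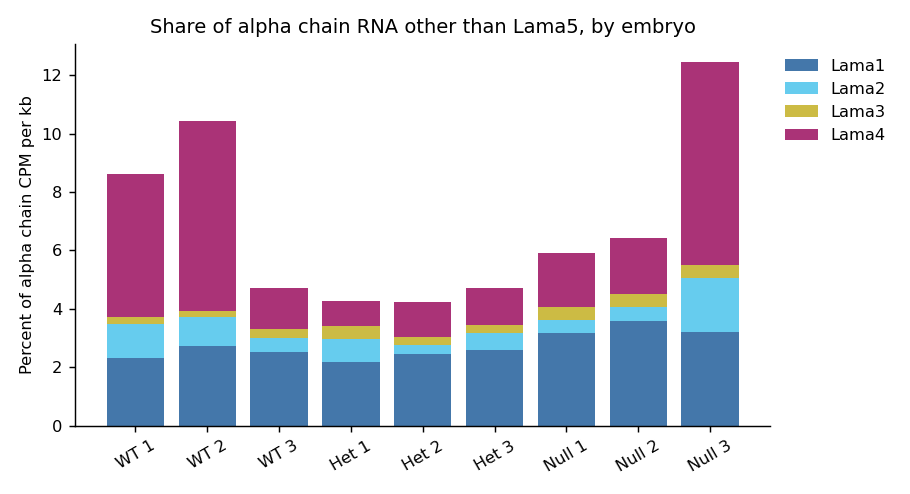
Share of alpha chain RNA (percent of summed CPM per kb) taken by Lama1, Lama2, Lama3 and Lama4 in each of the 9 embryos, with Lama5 making up the rest. The Lama4 band is widest in WT 1, WT 2 and Null 3, and the Lama1 band is wider in the 3 Null embryos (mean 3.32%) than in WT (2.52%) or Het (2.41%).

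Genes that bind laminins or build on them were examined as lists. Of 12 laminin receptor genes, 1 rose and 0 fell between Null and WT, where 1.78% of all genes passed, and 0 passed in the comparisons of Het with WT (0.261% of genes) or Null with Het (0.645%). At an unadjusted p under 0.05 there were 3 of 12 receptors between Null and WT (background 12.2%), 4 between Het and WT (13.1%) and 3 between Null and Het (11.4%). The gene that rose was Bcam, whose product binds the chain encoded by Lama5. It was 147.6, 140.6 and 172.9 CPM in WT, 195.4, 189.9 and 183.9 CPM in Het and 231.9, 311.9 and 229.0 CPM in Null embryos. The genotypes did not overlap in any pair. Upward non-overlap was seen in 10.1% of all genes between Null and WT, 8.98% between Het and WT and 9.06% between Null and Het. The log2 fold change of Bcam was 0.74 between Null and WT (standard error 0.140, edgeR adjusted p = 0.0467), 0.30 between Het and WT (edgeR adjusted p = 0.0938) and 0.44 between Null and Het (edgeR adjusted p = 0.215). Among the 6 edgeR fits with an embryo left out it passed without Null 2 or Null 3 (adjusted p = 0.0473 and 0.0261), and it missed the threshold without WT 1 (0.222), WT 2 (0.240), WT 3 (0.0801) or Null 1 (0.0844), and under the replicate block (0.145). Without the 3 libraries high in mesenchyme markers the log2 fold change of Bcam was 0.66 between Null and WT, and between Het and WT it fell from 0.30 to 0.13. The main integrin chains of epithelial laminin receptors did not pass between Null and WT: Itga3 had a log2 fold change of 0.15, Itga6 of -0.17 and Itgb1 of 0.0043, and Dag1, which encodes dystroglycan, of -0.05 (edgeR adjusted p = 0.492, 0.486, 0.990 and 0.862). These 4 genes and Itga1 were chosen after their values were seen. Itga1, a collagen and laminin receptor chain, had the most negative value of the list at -2.56 (edgeR adjusted p = 0.467). It was 19.95, 20.5 and 0.813 CPM in WT and 0.536, 0.484 and 6.07 CPM in Null embryos, highest in the same 3 libraries as Lama4. Without those libraries its log2 fold change was -0.67 between Null and WT and -0.09 between Het and WT. Of 12 genes that glycosylate dystroglycan so that it can bind laminin, 0 passed in any comparison, and their log2 fold changes between Null and WT lay between -0.31 and 0.21. At an unadjusted edgeR p under 0.05 the count was also 0, and DESeq2 and limma-voom called 0 of the 12. On the receptor list, limma-voom called Bcam between Null and WT alone, while DESeq2 called Bcam as higher in all 3 comparisons and Itga1 as lower in Het than in WT.

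Of 21 tested basement membrane partners, which include nidogens, perlecan, agrin and collagen IV chains, 0 rose and 2 fell between Null and WT, beside 1.78% of all genes. At an unadjusted p under 0.05, 2 were higher and 6 lower (8 of 21, background 12.2%). The median log2 fold change of the list was -0.20, beside 0.0097 over all genes, and 12 of the 21 had negative values. Smoc2, a calcium-binding matrix protein related to Sparc, was 215.5, 194.8 and 198.0 CPM in WT, 149.4, 146.3 and 152.9 CPM in Het and 94.7, 125.4 and 109.1 CPM in Null embryos. The 3 genotypes were fully apart and in the order of the Prdm16 level. Downward non-overlap was seen in 8.95% of all genes between Null and WT, 8.99% between Het and WT and 9.1% between Null and Het. The share of genes in this order over all 3 genotypes was not counted. Its log2 fold change was -0.89 between Null and WT (standard error 0.108, edgeR adjusted p = 0.0077) and -0.44 between Het and WT (standard error 0.0481, edgeR adjusted p = 0.0126). Between Null and WT it missed the threshold without WT 1 (0.0627) or WT 2 (0.0583). In the comparison of Het with WT it did so without Het 2 (0.0972) or Het 3 (0.0911) and with all 9 libraries in one fit (0.352). Col4a6, a collagen IV chain that assembles with Col4a5, was 22.6, 21.3 and 18.9 CPM in WT, 16.0, 15.5 and 17.9 CPM in Het and 13.2, 10.7 and 11.9 CPM in Null embryos, again without overlap. Null against WT gave a log2 fold change of -0.81 (standard error 0.131) and an edgeR adjusted p of 0.0251. Of the 6 fits with an embryo left out, Col4a6 passed in 1, that without Null 3 (0.0323), and its adjusted p lay between 0.0551 and 0.156 in the fits without WT 1, WT 2, WT 3, Null 1 or Null 2. With the replicate block its adjusted p was 0.0912. Without the 3 libraries high in mesenchyme markers the log2 fold change of Col4a6 was -0.66 and that of Smoc2 -0.84. Limma-voom called Smoc2 and Col4a6 between Null and WT and Smoc2 between Het and WT, as edgeR did. DESeq2 called 1 partner higher and 4 lower between Null and WT, adding Sparc upward and Col4a5 and Fras1 downward. Fras1, which links epithelium to the underlying matrix, was 381.1 to 436.8 CPM in WT, 337.1 to 377.0 CPM in Het and 195.5 to 294.5 CPM in Null embryos (log2 fold change -0.65 in Null against WT, edgeR adjusted p = 0.0973). Het against WT had 1 edgeR call of 22 (Smoc2, background 0.261%), and DESeq2 called Smoc2 and Egflam as lower. At an unadjusted p under 0.05, 0 partners were higher and 11 lower (background 13.1%). The 11 include Nid1, Nid2 and Col15a1 (log2 fold changes -1.93, -1.72 and -2.02), and also Smoc2 and Col4a6. Nid1 was 6.98 to 39.4 CPM in WT and 6.099 to 7.276 CPM in Het embryos. Col15a1 was 6.64 to 34.02 and 5.34 to 6.07 CPM. Without the 3 libraries high in mesenchyme markers, Smoc2 was at -0.405 and Col4a6 at -0.198. The part of mesenchyme RNA in this count was not tested. Null against Het had 0 edgeR calls of 21 (background 0.645%), with 2 higher and 5 lower at an unadjusted p under 0.05 (background 11.4%) and 3 called lower by DESeq2.

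Netrins share the amino-terminal domain of laminin chains. Of 4 tested, 0 rose and 1 fell between Null and WT (background 1.78%), and all 4 had an unadjusted p under 0.05, 3 higher and 1 lower (background 12.2%). Ntng1, which encodes a membrane-anchored netrin of nerve cells, was 14.2, 15.5 and 14.2 CPM in WT, 9.27, 8.54 and 11.8 CPM in Het and 7.30, 5.39 and 7.87 CPM in Null embryos. The log2 fold change of Ntng1 from WT to Null was -1.1 (standard error 0.173, edgeR adjusted p = 0.0241). It passed without Null 2 (0.0310) or Null 3 (0.0143), and lay between 0.0744 and 0.149 without WT 1, WT 2, WT 3 or Null 1, and at 0.101 with the replicate block. Without the 3 libraries high in mesenchyme markers the log2 fold change of Ntng1 was -1.16. DESeq2 also called Ntn4 and Ntng2 as higher in Null than in WT, where the edgeR adjusted p was 0.0703 and 0.111, and it called Ntng2 as higher and Ntng1 as lower in Het than in WT, where the edgeR adjusted p was 0.0848 and 0.0938. Of 5 tested hemidesmosome genes, edgeR called 0 in any comparison, limma-voom 0, and DESeq2 1, Dst as lower in Het than in WT. Between Null and WT, Itgb4 had a log2 fold change of -0.27 and Cd151 of 0.23 (edgeR adjusted p = 0.321 and 0.346), and these were the 2 of 5 with an unadjusted p under 0.05 (background 12.2%, with 1.78% called). Itgb4, Cd151 and Itga6 are on the receptor list too, so Itgb4 and Cd151 are also among its 3 of 12.

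**Figure D5:**
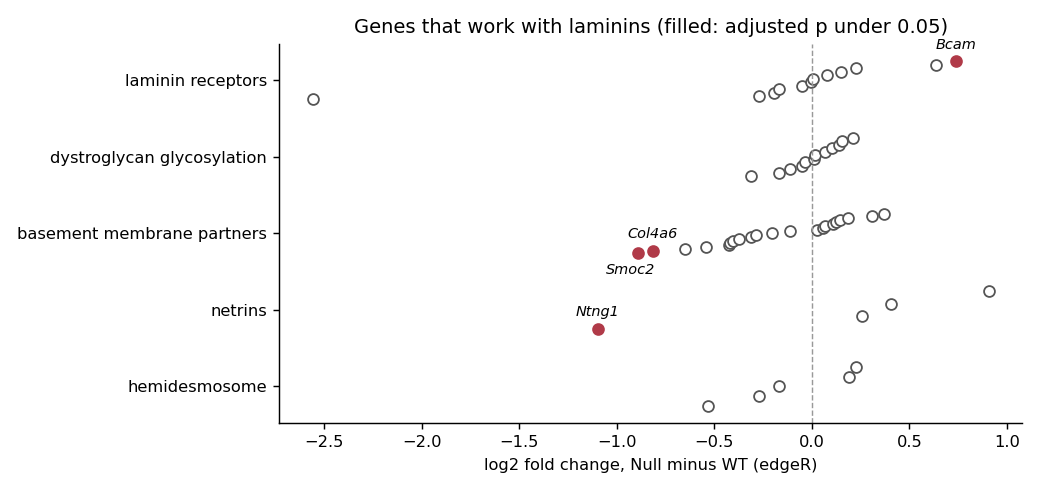
Log2 fold change between Null and WT (horizontal axis) of each tested gene in 5 lists, ordered by value within a list. Filled points have an edgeR adjusted p under 0.05. Among these, Bcam lies to the right of 0 and Smoc2, Col4a6 and Ntng1 lie to the left; the isolated receptor at -2.56 is Itga1.

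The genes whose log2 CPM followed each chain most closely over the 9 libraries were searched among 17796 genes. These correlations are a description over libraries that share genotype and tissue make-up. Lama1 was followed by Tmem74b (Pearson r = 0.973) and by Adamts5 (r = 0.971), a matrix protease. Adamts5 was 17.2 to 18.9 CPM in WT, 18.9 to 21.6 CPM in Het and 27.9 to 29.4 CPM in Null embryos, so it was likewise higher in each Null embryo than in the other 6. Lama4 was followed by Arhgap29 (r = 0.986) and Fez1 (r = 0.986). Arhgap29, which encodes a GTPase activating protein, was 42.9 to 44.9 CPM in WT 1, WT 2 and Null 3 and 20.8 to 27.1 CPM in the other 6 libraries. Lamb2 was followed by Col2a1 (r = 0.967), the collagen of cartilage and of the otic capsule, and by Klf5 (r = 0.965). Col2a1 was 10051 CPM in Null 3 and 4489 to 5487 CPM in the other 8 libraries. Lama2 was followed by Flnc (r = 0.973), a muscle filamin, and Zfp36l2 (r = 0.950), Lama5 by Dlg4 (r = 0.981) and Lamc1 by Kalrn (r = 0.977) and Glg1 (r = 0.976). Lamb1 was followed by Slc26a9 (r = 0.972) and Slc9a4 (r = 0.962), Lama3 by Ttc39a (r = 0.979) and the low-count Lamb3 by Plrg1 (r = 0.918).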

How the data were processed

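Values are the read counts per Ensembl gene that the authors deposited for each embryo, whole numbers with no normalization. Per the study's methods and the submitters' processing notes, TruSeq libraries were sequenced as single reads, aligned to mm10 with STAR after cutadapt 1.13, and compared with DESeq2. The notes also list HTSeq 0.6.1p1 and the methods Cufflinks, and which program made the counts is not given in the sources used here. Strand setting and annotation release are not given in the sources used here, and reads of overlapping antisense genes cannot then be told apart. Symbols, positions and exon lengths were taken from GENCODE mouse M21 on mm10 (54165 of 54232 genes matched). Exons of Lama2, Lama3 and Lamc3 each overlap an antisense gene, which held 0, 0 to 3 and 0 to 7 counts per library.

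Samples were grouped by labelled genotype. Counts were tested with edgeR 4.0.16 in R 4.3.3 (TMM normalization, filterByExpr with a minimum count of 10, quasi-likelihood test), and p-values were adjusted over all genes. Log2 CPM used a prior count of 2. Alternatives were DESeq2 1.42.0, limma-voom (limma 3.58.1), RLE or no composition normalization, no low count filter, a mean count over 100, one fit of all 9 libraries, a block for the replicate number, each embryo left out, and, added after seeing the data, a fit of the 6 libraries left without the 3 highest in mesenchyme markers. The count procedure was tested on simulated data. Single values used the exact permutation test.

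Named genes are the 9 chains, Lamc3, list members with an adjusted p under 0.05 (at most 6 per list) and the 2 genes most correlated with each chain. List members called by DESeq2 but not edgeR, Itga1 and a few receptor genes were added after their values were seen. The members and lists were chosen with earlier results of these data known. No 2 libraries of a genotype agreed within sampling noise (chi-square per gene 5.70 or more). Promoter sequences are from RefSeq, GRCm38.p6. Some values computed under these rules are not reported here.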

Additional observations from a re-analysis of the deposited data

How the results depend on the processing

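In all, 27 fold changes of single chains were recomputed under 399 alternative values, of which 362 kept direction and side of the threshold, 6 newly passed and 31 changed sign. Of the sign changes, 19 came from leaving out an embryo, and 15 of the 27 never changed sign. For the other values below, the cause was not tested. Under the mean count filter of 100, Lama3 and Lamb3 were not tested.

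The number of genes called between Null and WT, 306, became 791 with DESeq2, 529 with no filter on low counts, 595 with all 9 libraries in one fit, 133 with the replicate block and 68 to 466 with an embryo left out. The 45 genes between Het and WT became 552 with DESeq2, 17 with limma-voom, 1173 with no filter, 0 with all 9 libraries in one fit, 14 without the 3 libraries high in mesenchyme markers, 310 with the replicate block and 0 to 727 with an embryo left out. The 110 genes between Null and Het became 455, 416 and 204 with DESeq2, no filter and all 9 libraries, 203 without the 3 libraries, 52 with the replicate block and 12 to 183 with an embryo left out. Same-numbered embryos had correlations of their deviations from -0.284 to 0.202. Whether the numbers mark a shared litter or batch is not given in the labels. These correlations cannot settle it, because each deviation is from a mean of 3 embryos that differ in mesenchyme RNA. No laminin chain was called with the block.

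The 0 chains called between Null and WT became 1 (Lama1) with all 9 libraries in one fit. Between Het and WT they became 3 (Lama2, Lama4 and Lama5) with no filter, and 0 to 1 with an embryo left out (Lama4, without WT 3). Between Null and Het they became 1 (Lama4) with no filter. With the longest transcript as length, Lama5 was 87.9% of alpha chain RNA in WT, 94.2% in Het and 88.1% in Null, so that Null lay just above WT instead of just below it, Lama4 went from 4.26% to 8.03% in WT, from 1.1% to 2.17% in Het and from 3.58% to 6.74% in Null, and Lamb1 was 85.2%, 84.4% and 82.9% of beta chain RNA in WT, Het and Null.

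Sign changes between Null and WT were as follows. Lama2 was -0.19 with limma-voom, -0.23 with the replicate block, -0.13 without the 3 libraries and -0.91 to 0.44 with an embryo left out. Lama4 was 0.38 without the 3 libraries and -1.14 to 0.18 with an embryo left out. Lama5 was 0.0027 with all 9 libraries and -0.10 to 0.070 with an embryo left out. Lamb2 was -0.080 without the 3 libraries and -0.11 to 0.22 with an embryo left out, and Lamb3 was -0.19 to 0.34. Between Het and WT, Lama2 was 0.26 without the 3 libraries, Lamb2 was -0.018 to 0.070 with an embryo left out, and Lamb3 was 0.042 with limma-voom, 0.0082 with the replicate block, 0.64 without the 3 libraries and -0.28 to 0.26 with an embryo left out. Between Null and Het, Lama2 was -0.39 and Lamb2 -0.14 without the 3 libraries. With an embryo left out they were -0.40 to 0.97 and -0.14 to 0.19, Lamb3 was -0.13 to 0.23 and Lamc1 -0.21 to 0.014.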

Other observations

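Cspg4, a pericyte and cartilage proteoglycan, was 171.7 CPM in Null 3 and 5.5 to 9.4 CPM in the other 8 libraries. It was singled out from 6 pericyte markers after its values were seen, and the others had no such peak. In WT and Null embryos, Pdgfrb was 10.7 to 41.3 and 8.17 to 32.8 CPM, and Rgs5 38.3 to 41.0 and 27.2 to 38.2 CPM. Notch3 was 248.5 to 255.4 and 188.4 to 264.5 CPM, Abcc9 3.86 to 5.53 and 3.07 to 7.30 CPM, and Kcnj8 1.73 to 2.27 and 1.87 to 2.64 CPM. Null 3 was also the library with the highest Lamb2, Lama2, Lama4 and Col2a1.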
